A study of Homo sapiens with 8 samples.

Results

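The genes described here encode the 5 subunits of the transcription factor NF-kappaB (NFKB1, NFKB2, REL, RELA and RELB) and 5 proteins that restrain it (NFKBIA, NFKBIE, NFKBIZ, BCL3 and TNFAIP3). They were chosen by symbol, as 10 of the 26364 genes in the count table. These genes and the gene lists used below were chosen with earlier results of these data known. RNA was sequenced from LN229, an established human glioblastoma cell line, after stable transfection and G418 selection. Surv-GFP cells carried Survivin, the BIRC5 product, fused to GFP with a working nuclear export signal. In unexposed cells this fusion lay mostly in the cytoplasm. SurvNESmut-GFP cells carried the same fusion with the export signal mutated, and it lay mostly in the nucleus. Each form was represented by 1 clone, so that clone and Survivin form cannot be told apart. Both clones kept their own BIRC5 gene, and no LN229 cells without a transgene were among the libraries. Cells of each clone were left untreated or exposed to 50 µM temozolomide (TMZ), an alkylating drug used against glioblastoma, for 48 h. This gave 4 groups of 2 libraries, lettered a and b. TMZ was dissolved in DMSO, and neither the labels nor the methods say whether untreated cells received DMSO.

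NF-kappaB proteins bind DNA as dimers. RELA, REL and RELB carry a transactivation domain, whereas NFKB1 and NFKB2 encode precursors that are processed into DNA-binding partners. In resting cells, inhibitors of the IkB family hold the dimers in the cytoplasm. Cytokine receptors and DNA damage lead to phosphorylation and degradation of these inhibitors, and several of the inhibitor genes are themselves transcribed by NF-kappaB, which closes a feedback loop. RNA levels report on the amounts of these transcripts and not on the location or activity of the proteins.

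All 8 libraries were of similar depth, with 15826923 to 18861603 counts on genes, and the 10 genes passed the filter on low counts, as did 14201 genes in all. The replicates of the 4 groups differed by more than counting noise, with a chi-square per degree of freedom of 2.2 to 2.66 in 3 groups and of 5.74 in SurvNESmut-GFP cells with TMZ. BIRC5 was counted from the cell's own gene and transgene together where reads match both. In Surv-GFP libraries it was at 1152 and 1113 CPM (read counts scaled to a common library size) untreated and at 1938 and 2029 CPM with TMZ. In SurvNESmut-GFP libraries it was at 407 and 414 CPM untreated and at 262 and 253 CPM with TMZ. The amount of BIRC5 RNA thus also differed between the clones, and its part in the results was not tested. Of the 9 glioma markers, VIM was at 2350 to 3780 CPM, NES at 524 to 1010, CD44 at 566 to 742, EGFR at 48.3 to 101, SOX2 at 19.4 to 92.6, OLIG2 at 5.55 to 35.2, PDGFRA at 6.14 to 52.6 and S100B at 14.3 to 798 CPM, whereas GFAP was at 0 to 0.921 CPM. The summed glioma markers were at 6020 to 6090 CPM in untreated Surv-GFP libraries and at 3880 to 3970 CPM with TMZ, and at 4680 to 4880 and 4140 to 4270 CPM in SurvNESmut-GFP libraries. Of the 8 leukocyte markers, CD68 was at 11.9 to 21.4 CPM, and the others had at most 10 counts in any library, with none for MS4A1. The summed leukocyte markers were at 12.2 CPM in both untreated Surv-GFP libraries, 17.3 to 19.4 CPM with TMZ, 15.9 to 16.3 CPM in untreated SurvNESmut-GFP and 19.7 to 22.2 CPM with TMZ there, and the part of either marker list in the results was not tested. Endothelial and epithelial markers summed to at most 1.08 and 0.504 CPM.

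Because several members are known NF-kappaB targets, their promoters were searched for the kappaB consensus. It was taken as 3 G, a purine, 2 bases of any kind, 2 pyrimidines and 2 C, on both strands, in RefSeq windows from 250 bases before to 50 after each start (GRCh38.p14). A window was held for 8 of the 10 genes. The consensus was found in 7 of these 8 genes (87.5%) and in 13.3% of the 27305 genes with a window. Among the lists of other NF-kappaB genes described below, it was found in 24 of 43 target genes with a window (55.8%). For the pathway genes this was 15 of 56 (26.8%). Counted by window, the consensus was found in 9 of 13 member windows (69.2%), against 11.3% of all 35116. The member windows held 51.3% to 80.0% G and C, and the part of base content was not tested. NFKB2 matched at 4 separate places in its windows, while RELA had no match in either of its windows and NFKBIA had 1. The sequences below belong to genes whose response to TMZ differed between the clones, and show the match in capitals, 5′ to 3′ on the strand of the gene:

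NFKB1, chr4:102501300-102501329, match 49 bases before the start: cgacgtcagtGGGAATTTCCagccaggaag

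NFKB2, chr10:102394461-102394490, match 107 bases before the start of its window 2: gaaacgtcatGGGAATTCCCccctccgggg

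NFKB2, chr10:102394490-102394519, match 78 bases before the same start: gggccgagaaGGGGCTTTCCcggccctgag

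NFKB2, chr10:102395674-102395703, match 21 bases before the start of its window 3: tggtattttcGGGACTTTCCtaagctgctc

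REL, chr2:60881517-60881546, match 47 bases before the start: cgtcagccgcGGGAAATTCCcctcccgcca

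NFKBIZ, chr3:101827742-101827801, match 223 bases before the start: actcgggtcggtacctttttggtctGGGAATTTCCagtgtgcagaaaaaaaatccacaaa

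BCL3, chr19:44748700-44748729, match from base 3 after the start: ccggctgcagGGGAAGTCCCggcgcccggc

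TNFAIP3, chr6:137867182-137867211, match on the opposite strand 67 bases before the start: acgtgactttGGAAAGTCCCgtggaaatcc

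TNFAIP3, chr6:137867194-137867223, match on the opposite strand 55 bases before the start: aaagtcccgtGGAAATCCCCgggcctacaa

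Each of these coordinates is on the plus strand, and each start is that of a RefSeq window. In the GENCODE v29 annotation every printed stretch except that of NFKBIZ overlapped an exon. A match before a RefSeq start can thus lie within an annotated gene. Not printed were a match of NFKB2, 176 bases before the start of its window 3, and a match of NFKBIZ. The latter lay 239 bases before the start of window 2 of NFKBIZ. The stretch around this NFKB2 match overlapped no exon, and that around this NFKBIZ match did. The pair of TNFAIP3 sequences overlap, and their matches do not. NFKB1 and NFKBIZ held the same 10 bases. At the first NFKB2 place and at REL, a second match on the opposite strand overlapped the printed one, shifted by 1 base. A match is a description of the letters and says nothing on binding in these cells.

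The first question was how the NF-kappaB genes responded to TMZ where Survivin could leave the nucleus. In Surv-GFP cells all 5 subunit transcripts rose, as did those of NFKBIA, NFKBIE and TNFAIP3, whereas BCL3 fell and NFKBIZ did not pass the test. Thus 8 of the 10 genes rose and 1 fell, where 30.1% of all tested genes rose and 28.9% fell. The rise was largest for RELB and TNFAIP3. The median log2 fold change was 0.68 over the members and 0 over all genes. In such bulk RNA, a change in the share of expressing cells and a change per cell cannot be told apart.

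RELB encodes the subunit that pairs with processed NFKB2 in the alternative arm of the pathway. It stood at 10.7 and 9.99 CPM in the untreated Surv-GFP libraries and at 41.3 and 46.3 CPM with TMZ. This was a 4.23-fold rise, with a log2 fold change of 2.08 (SE 0.10, 95% interval 1.87 to 2.30, edgeR adjusted p = 4.39e-11). Its partner gene NFKB2 went from 41.6 and 39.6 CPM to 94.0 and 88.2 CPM, a log2 fold change of 1.17 (SE 0.06, edgeR adjusted p = 8.65e-11). In both genes the exposed libraries lay far above the untreated ones.

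The canonical subunits rose less. NFKB1 stood at 76.7 and 77.1 CPM without and at 148.5 and 142.7 CPM with TMZ, which gave a log2 fold change of 0.92 (SE 0.05, edgeR adjusted p = 1.78e-10). RELA, the main transactivating partner of NFKB1, went from 105.1 and 109.2 to 149.1 and 153.8 CPM, by 0.50 on the log2 scale (SE 0.05, edgeR adjusted p = 4.03e-07). REL, best known from lymphoid cells, went from 28.3 and 30.4 to 46.2 and 49.4 CPM, by 0.70 (SE 0.08, edgeR adjusted p = 1.03e-06). No subunit had an exposed library within the range of the untreated ones. With 2 libraries a group such separation is weak evidence. The share of all tested genes separated in this way was not counted, here or in the comparisons below. In the GENCODE annotation 5702 of the 11255 exon bases of REL are shared with another gene on the same strand, AC010733.2, so that its count depends on how shared reads were assigned.

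**Figure D1:**
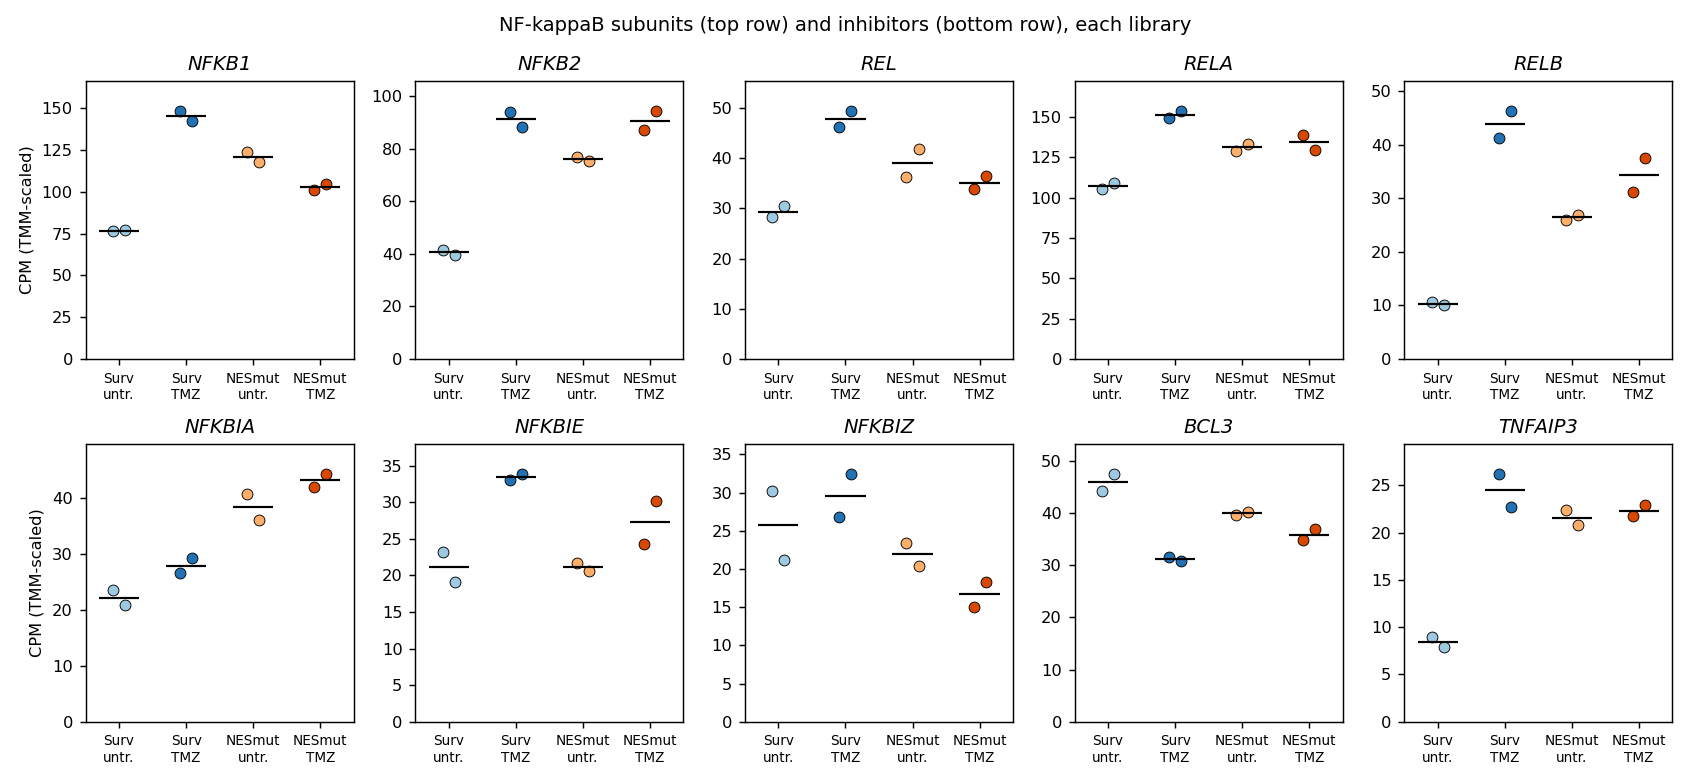
Level of each gene in CPM (scaled by TMM, linear axes from 0) in the 8 libraries; points are libraries and lines the mean of the 2 libraries of a group. Untreated Surv-GFP had the lowest level of all 5 subunits and of TNFAIP3, and RELB rose from about 10.3 to 43.8 CPM in that clone.

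Among the inhibitors, TNFAIP3, a ubiquitin-editing enzyme that shuts off signalling from cytokine receptors, stood at 8.996 and 7.893 CPM in untreated Surv-GFP libraries and at 26.3 and 22.7 CPM with TMZ. Its log2 fold change was 1.54 (SE 0.11, edgeR adjusted p = 3.68e-09), a 2.90-fold rise. NFKBIE, which encodes IkB-epsilon, went from 23.1 and 19.2 to 33.1 and 33.9 CPM, by 0.66 on the log2 scale (SE 0.10, edgeR adjusted p = 3.38e-05). The gene of the classical inhibitor IkB-alpha, NFKBIA, went from 23.5 and 20.9 to 26.5 and 29.2 CPM, by 0.33 (SE 0.09, edgeR adjusted p = 0.00513). That small rise rested on single libraries: the adjusted p was 0.0741 without untreated library b and 0.0984 without TMZ library b.

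BCL3 and NFKBIZ are atypical members of the IkB family that act in the nucleus and can also aid transcription. BCL3 stood at 44.2 and 47.6 CPM untreated and at 31.6 and 30.8 CPM with TMZ, and thus fell by 0.56 on the log2 scale (SE 0.07, edgeR adjusted p = 2.58e-06), the only member to fall in this clone. NFKBIZ stood at 30.2 and 21.2 CPM untreated and at 26.7 and 32.5 CPM with TMZ, and the groups overlapped. Its log2 difference was 0.20 (95% interval -0.09 to 0.49, edgeR adjusted p = 0.224). The 2 untreated libraries, with 558 and 384 NFKBIZ counts, differed by more than counting error (exact binomial p = 1.01e-07), and the direction rested on them: without untreated library a the value was 0.48 (adjusted p = 0.00976), and without untreated library b it was -0.03 (adjusted p = 0.871).

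The second question was whether SurvNESmut-GFP cells responded in the same way. In SurvNESmut-GFP cells TMZ raised NFKB2, RELB and NFKBIE and lowered NFKB1, and 6 members did not pass the test. These were 3 genes higher and 1 lower of 10, where 18.6% of all tested genes were higher and 19.1% lower. The median over the members was 0.04 on the log2 scale, against 0.003 over all genes.

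RELB stood at 26.0 and 26.8 CPM untreated and at 31.1 and 37.5 CPM with TMZ, a log2 fold change of 0.37 (SE 0.09, edgeR adjusted p = 0.00432). NFKB2 went from 76.9 and 75.5 to 87.0 and 94.4 CPM, by 0.25 (SE 0.06, edgeR adjusted p = 0.00256). NFKB1 moved the other way, from 124.1 and 118 CPM to 101.4 and 104.8 CPM, and fell by 0.23 on the log2 scale (SE 0.05, edgeR adjusted p = 0.00174). In each of these 3 genes the groups did not overlap.

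RELA and REL did not pass the test in this clone. RELA stood at 129.0 and 133.3 CPM untreated and at 139.0 and 129.5 CPM with TMZ, a log2 difference of 0.03 (95% interval -0.08 to 0.14). REL stood at 36.2 and 41.7 CPM untreated and at 33.8 and 36.4 CPM with TMZ, a log2 difference of -0.15 (95% interval -0.32 to 0.02). The groups overlapped in both genes.

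For the inhibitors, NFKBIE went from 21.6 and 20.6 to 24.3 and 30.2 CPM, a log2 fold change of 0.36 (SE 0.11, edgeR adjusted p = 0.0132). The call was lost without TMZ library b (adjusted p = 0.136), without untreated library a (0.0523) or without untreated library b (0.104). TNFAIP3 stood at 22.4 and 20.8 CPM untreated and at 21.7 and 22.9 CPM with TMZ, with overlapping groups and a log2 difference of 0.05 (95% interval -0.16 to 0.25). NFKBIA had 40.6 and 36.0 CPM untreated and 41.9 and 44.3 CPM with TMZ, a log2 difference of 0.17 (SE 0.08, edgeR adjusted p = 0.108). Its libraries did not overlap, although the difference did not pass the test.

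BCL3 had 39.6 and 40.3 CPM untreated and 34.8 and 36.9 CPM with TMZ, a log2 difference of -0.16 (SE 0.07, edgeR adjusted p = 0.0838). NFKBIZ had 23.4 and 20.4 CPM untreated and 15.1 and 18.3 CPM with TMZ, a log2 difference of -0.40 (SE 0.15, edgeR adjusted p = 0.0532). NFKBIZ lay next to the threshold, and passed it when only the 4 SurvNESmut-GFP libraries were fitted (adjusted p = 0.0181).

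**Figure D2:**
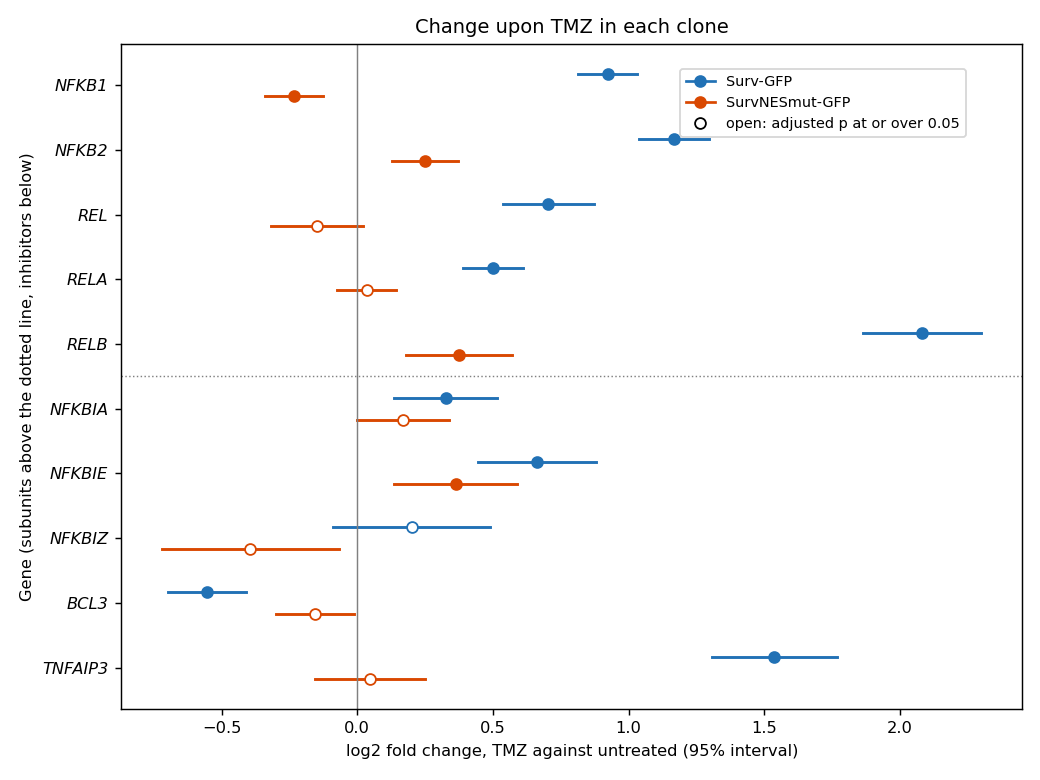
Log2 fold change upon TMZ for each gene in Surv-GFP and in SurvNESmut-GFP cells; points are estimates, lines their 95% intervals, and open points did not pass an adjusted p of 0.05. All 5 subunits lie to the right of 0 in Surv-GFP cells, up to 2.08 for RELB, while in SurvNESmut-GFP cells the largest is 0.37 and NFKB1 lies at -0.23.

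The difference between both responses was then tested itself, as an interaction of clone and TMZ. It was called for 8 members, lower in SurvNESmut-GFP cells for 7 and higher for 1, where 20.2% of all tested genes were lower and 16.6% higher. The 5 subunits were all among those with a lower response. The median over the members was -0.72 on the log2 scale and that over all genes was -0.001. This comparison uses the same 8 libraries as the 2 responses above.

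The gap was widest for RELB, at -1.71 on the log2 scale (SE 0.14, edgeR adjusted p = 1.26e-07), so that its fold change in SurvNESmut-GFP was 0.306 of that in Surv-GFP cells. TNFAIP3 followed at -1.49 (SE 0.15, edgeR adjusted p = 8.59e-07) and NFKB1 at -1.15 (SE 0.07, edgeR adjusted p = 5.36e-09). In the case of NFKB1 the responses were of opposite direction, each past the threshold. NFKB2 differed by -0.92 (SE 0.08), REL by -0.85 (SE 0.11) and RELA by -0.47 (SE 0.07), with edgeR adjusted p-values of 4.21e-07, 2.08e-05 and 0.000116.

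BCL3 was the exception in direction: it fell in Surv-GFP cells and did not pass the test in SurvNESmut-GFP cells. The difference was 0.40 (SE 0.10, edgeR adjusted p = 0.00388). NFKBIZ differed by -0.59 (SE 0.21, edgeR adjusted p = 0.0319), a call lost with DESeq2 (adjusted p = 0.204), with a robust prior (0.155) and on leaving out any 1 of 4 libraries (adjusted p of 0.141 without Surv-GFP untreated b, 0.161 without Surv-GFP TMZ b, 0.15 without SurvNESmut-GFP untreated a and 0.0592 without SurvNESmut-GFP TMZ a). The responses of NFKBIA and NFKBIE, both cytoplasmic inhibitors, were not shown to differ. Their differences were -0.16 (95% interval -0.41 to 0.10) and -0.30 (95% interval -0.62 to 0.01), and that of NFKBIE passed without Surv-GFP untreated a (adjusted p = 0.0463) or without SurvNESmut-GFP TMZ b (0.00714).

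The third comparison was between the clones before exposure. Untreated SurvNESmut-GFP cells already held more of all 5 subunits, of NFKBIA and of TNFAIP3 than untreated Surv-GFP cells, and less BCL3. These were 7 genes higher and 1 lower of 10, where 34.7% of all tested genes were higher and 29.4% lower. The median was 0.53 on the log2 scale over the members and 0.03 over all genes. The comparison shares its libraries with the responses to TMZ, so a low untreated level in Surv-GFP cells enters both.

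RELB and TNFAIP3 differed most, 2.56-fold and 2.55-fold, with log2 differences of 1.35 (SE 0.11 in both, edgeR adjusted p = 1.48e-08 and 1.59e-08). NFKB2 was 1.88-fold, NFKBIA 1.73-fold, NFKB1 1.58-fold, REL 1.33-fold and RELA 1.22-fold higher, each with groups that did not overlap and an edgeR adjusted p of 0.000315 or smaller. BCL3 was lower by a log2 difference of -0.20 (SE 0.07, edgeR adjusted p = 0.0137), and the call was lost without Surv-GFP untreated b (adjusted p = 0.155) or without SurvNESmut-GFP untreated a (0.0778). NFKBIE was not shown to differ, with a log2 difference of 0.00 (95% interval -0.23 to 0.23), and NFKBIZ differed by -0.23 (95% interval -0.53 to 0.07), with 0.05 without Surv-GFP untreated a and -0.46 without Surv-GFP untreated b.

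With TMZ in both clones, the order of most subunits turned round. SurvNESmut-GFP cells then held less NFKB1, REL, RELA, RELB, NFKBIE and NFKBIZ, and more NFKBIA and BCL3. These were 6 genes lower and 2 higher of 10, where 34.7% of all tested genes were lower and 34.5% higher. The median over the members was -0.24 on the log2 scale, against -0.001 over all genes.

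NFKB1 was at -0.50 (SE 0.05, edgeR adjusted p = 1.76e-07), REL at -0.45 (SE 0.08, edgeR adjusted p = 9.06e-05) and RELB at -0.36 (SE 0.09, edgeR adjusted p = 0.00169). RELA was at -0.17 (SE 0.05, edgeR adjusted p = 0.00668), and at an adjusted p of 0.056 without Surv-GFP TMZ b. NFKB2 and TNFAIP3 had overlapping groups, with log2 differences of -0.01 (95% interval -0.13 to 0.11) and -0.14 (95% interval -0.34 to 0.06). Neither was shown to differ between the exposed clones.

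NFKBIZ was the inhibitor with the largest gap, at -0.83 (SE 0.15, edgeR adjusted p = 0.000105). NFKBIE was at -0.30 (SE 0.10, edgeR adjusted p = 0.0134), lost without Surv-GFP TMZ b (0.0561) or SurvNESmut-GFP TMZ a (0.0943). BCL3 was at 0.20 (SE 0.07, edgeR adjusted p = 0.0193), lost with DESeq2 (0.0985) and without Surv-GFP TMZ a (0.0941), Surv-GFP TMZ b (0.0955) or SurvNESmut-GFP TMZ b (0.213). NFKBIA stood apart from the subunits. It was higher in SurvNESmut-GFP cells with TMZ, by 0.63 (SE 0.08, edgeR adjusted p = 4.21e-06), as it had been without, by 0.79 (SE 0.09, edgeR adjusted p = 5.75e-07), and its levels in the 4 groups did not overlap.

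**Figure D3:**
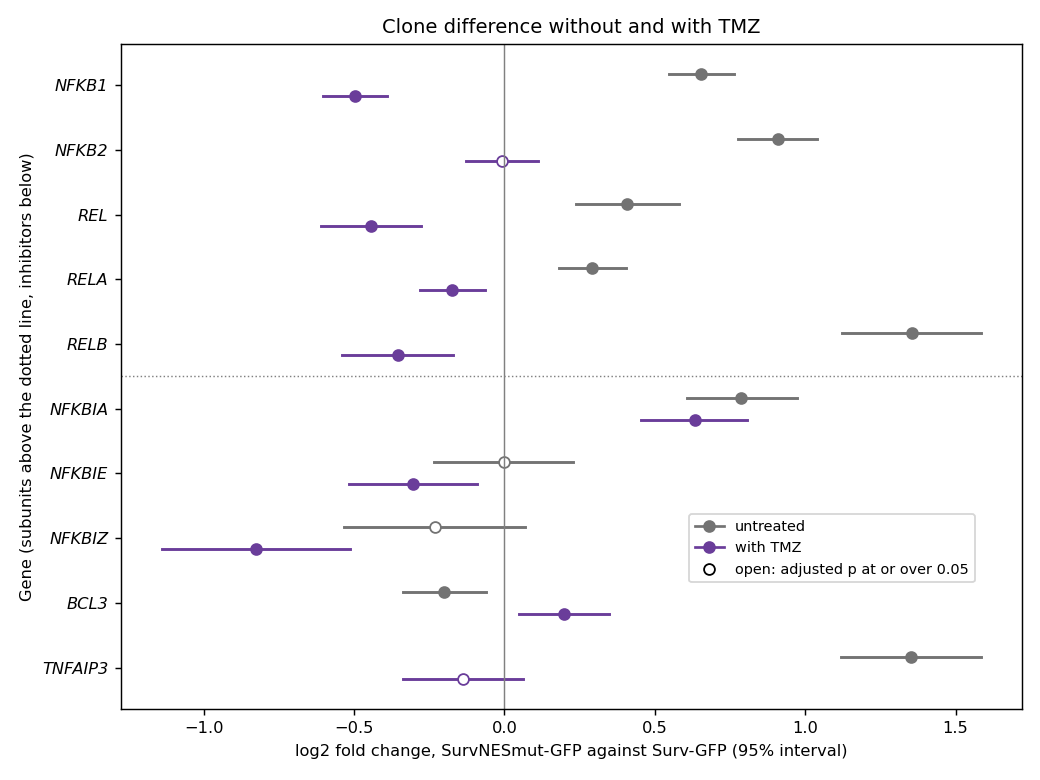
Log2 difference between SurvNESmut-GFP and Surv-GFP cells for each gene, untreated and with TMZ; points are estimates, lines their 95% intervals, and open points did not pass an adjusted p of 0.05. The subunits lie right of 0 untreated (0.29 to 1.35) and at or left of 0 with TMZ (-0.50 to -0.01), whereas NFKBIA lies right of 0 in both.

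Seen across the 4 groups, the members fell into a few orders of level. For NFKB1, RELA, REL and RELB the lowest level was in untreated Surv-GFP cells and the highest in Surv-GFP cells with TMZ, with both SurvNESmut-GFP groups between. Those 2 groups overlapped for RELA and REL but not for NFKB1 and RELB. TNFAIP3 and NFKB2 were also lowest in untreated Surv-GFP cells, but the exposed clones overlapped. BCL3 ran in the reverse order, highest in untreated and lowest in exposed Surv-GFP cells, and no groups overlapped. NFKBIA rose in another order, with both Surv-GFP groups below both SurvNESmut-GFP groups. NFKBIE was highest in exposed Surv-GFP cells, and its untreated groups overlapped. NFKBIZ was lowest in exposed SurvNESmut-GFP cells, and both untreated groups overlapped each other.

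To compare the subunits with each other, CPM were divided by the exon length of each gene in kb, taken from GENCODE v29 on GRCh38. The annotation behind the counts was not stated, so these levels are approximate. The subunits summed to 63.4 to 64.0 CPM per kb in untreated Surv-GFP libraries and to 119 to 120 with TMZ. In SurvNESmut-GFP libraries the sum was 96.0 to 96.6 untreated and 99.5 to 102 with TMZ. Cells of the Surv-GFP clone thus went from the lowest to the highest sum of the 4 groups.

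RELA was the most abundant subunit per length in every group, and REL the least. The place of REL depends on its exon length of 11255 bases, of which 5702 are shared with AC010733.2. Not divided by length, RELB had the lowest mean of the subunits in every group. It was at 10.33 CPM against 29.35 for REL in untreated Surv-GFP cells. In SurvNESmut-GFP cells with TMZ these means were 34.3 and 35.14 CPM. The share of RELA in the sum was 49.7% in untreated Surv-GFP cells and 37.5% with TMZ, and 40.2% and 39.3% in SurvNESmut-GFP cells. RELB made up 7.06% in untreated Surv-GFP cells, 16% with TMZ, 11.9% in untreated SurvNESmut-GFP cells and 14.8% with TMZ. NFKB1 kept a share of 21.9% to 22.8% in 3 groups and had 18.5% in SurvNESmut-GFP cells with TMZ. Among the inhibitors the order per length was not the same in each clone: BCL3 was the highest in untreated Surv-GFP cells (22.5 CPM per kb, against 11.7 for NFKBIA), and NFKBIA in SurvNESmut-GFP cells with TMZ (22.7, against 17.6 for BCL3). TNFAIP3 was the lowest in 3 groups, at 1.78 to 5.17 CPM per kb, and NFKBIZ in SurvNESmut-GFP cells with TMZ, at 3.99.

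**Figure D4:**
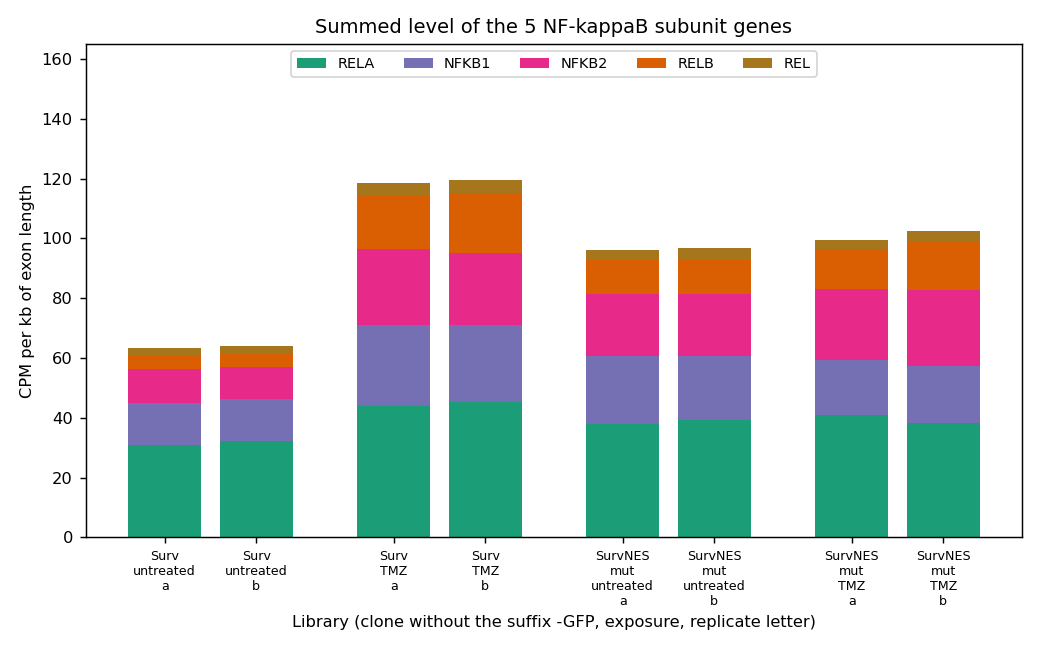
Summed level of the 5 subunit genes in each library, in CPM per kb of exon length on a linear axis from 0; stacked colours are the genes. The sum is 63.4 to 64.0 in untreated Surv-GFP libraries, 119 to 120 with TMZ there, and 96.0 to 102 in SurvNESmut-GFP libraries, and the RELB segment is smallest in the former.

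The other genes of the pathway moved less uniformly. Of 64 listed receptors, adaptors, kinases and regulators, 62 passed the filter. In Surv-GFP cells 26 rose and 12 fell with TMZ (median 0.15 on the log2 scale), where 30.1% and 28.9% of all tested genes did. In SurvNESmut-GFP cells 13 rose and 5 fell (median 0.05), against 18.6% and 19.1% of all. The difference of the responses was called lower for 16 and higher for 9, against 20.2% and 16.6% of all. Of the 7 genes of the alternative arm, TNFRSF12A, BIRC2 and TRAF3 rose in both clones, and CD40 and MAP3K14 passed the test in neither. LTBR rose and TNFRSF11A fell in Surv-GFP cells, whereas TNFRSF11A rose in SurvNESmut-GFP cells and LTBR did not pass the test there (edgeR adjusted p for LTBR 0.0447 and 0.0563). The fall of TNFRSF11A was -0.53 on the log2 scale, and its call was lost without Surv-GFP untreated a, at -0.44. Between the clones, CD40 was higher in SurvNESmut-GFP cells, by 7.22 untreated (SE 0.47) and 9.15 with TMZ (SE 0.66) on the log2 scale. Of the 7 genes, 5 were higher and 1 lower there untreated, where 34.7% and 29.4% of all tested genes were. With TMZ, 5 were higher and 2 lower, where 34.5% and 34.7% of all were. TRAF3, LTBR, CD40 and MAP3K14, and the targets BDKRB1 and IL6, were named after their values were seen. Of the 12 genes for kinases of the canonical arm and their partners, 3 rose and 5 fell in Surv-GFP cells, against 1 and 0 in the other clone.

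TNFRSF12A, the receptor for TWEAK that feeds the alternative arm, led the rises in Surv-GFP cells. It stood at 43.4 ± 1.22 CPM (SD, n = 2) untreated and 275 ± 3.86 CPM with TMZ, against 153 ± 14.1 and 196 ± 8.78 CPM in SurvNESmut-GFP cells. Its log2 fold changes were 2.67 and 0.35, and they differed by -2.31 (SE 0.09, edgeR adjusted p = 2.25e-11). BIRC2, a ubiquitin ligase that limits the alternative arm, rose by 1.13 and 0.26 (difference -0.87, edgeR adjusted p = 1.26e-06). NFKBIB, a further cytoplasmic IkB gene, rose from 22.9 to 53.1 CPM in Surv-GFP cells and stood at 30.7 and 31.5 CPM in the other clone (difference -1.18, edgeR adjusted p = 1.94e-07).

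PIDD1, a scaffold protein of the response to DNA damage, rose in both clones, by 1.13 in each, with a difference of 0.00 (95% interval -0.17 to 0.17). RBCK1, a subunit of the linear ubiquitin ligase, rose by 0.63 and 0.53. PARP1, a DNA damage sensor, fell by 0.83 on the log2 scale in Surv-GFP cells, from 425 to 240 CPM, and stood at 418 and 409 CPM in SurvNESmut-GFP cells (difference 0.79, edgeR adjusted p = 1.34e-07). ERC1, which binds the IkB kinase complex, fell by 0.34 in Surv-GFP cells. IL1R1, the interleukin-1 receptor, fell by 1.32 in Surv-GFP cells. It also fell in SurvNESmut-GFP cells, by 0.22, a call lost with DESeq2 (adjusted p = 0.0796) and without untreated library a (0.09), untreated library b (0.0589) or TMZ library a (0.136). The TNF receptor gene TNFRSF1A fell by 0.28 in SurvNESmut-GFP cells. In Surv-GFP cells it was at -0.12 (edgeR adjusted p = 0.0556), and the responses were not shown to differ (-0.16, edgeR adjusted p = 0.101). TNFRSF11A, which encodes RANK, was at 8.23 and 5.70 CPM in Surv-GFP and at 4.55 and 8.63 CPM in SurvNESmut-GFP cells without and with TMZ, with a difference of the responses of 1.45 (SE 0.22, edgeR adjusted p = 8.38e-05).

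Known NF-kappaB target genes, other than the members, were described in the same way. Of 57 listed, 44 passed the filter, which keeps a gene that is high in a single group, so the counts describe these genes only. In Surv-GFP cells 27 rose and 6 fell with TMZ (30.1% and 28.9% of all tested genes), with a median of 0.92 on the log2 scale. In SurvNESmut-GFP cells 20 rose and 7 fell (18.6% and 19.1% of all), with a median of 0.13. The difference was called lower for 21 and higher for 6 (20.2% and 16.6% of all), with a median of -0.70. The targets listed as secreted, among which the receptor gene BDKRB1 was also placed, had the largest median in Surv-GFP cells, 1.94 over 18 genes, of which 12 rose and 1 fell, and in SurvNESmut-GFP cells 10 of these rose and 2 fell (median 0.28).

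CXCL8, a neutrophil chemokine, stood at 10.8 ± 1.68 CPM (SD, n = 2) in untreated Surv-GFP cells and at 296 ± 13.4 CPM with TMZ, against 56.9 ± 2.30 and 91.4 ± 7.28 CPM in SurvNESmut-GFP cells. This was a 27.2-fold and a 1.61-fold rise, and the difference on the log2 scale was -4.08 (SE 0.11, edgeR adjusted p = 3.94e-13). The cytokine gene LIF rose 15.2-fold and 1.24-fold (difference -3.61, edgeR adjusted p = 1.08e-13). SQSTM1, an autophagy receptor, rose 3.17-fold in Surv-GFP cells, from 386 to 1220 CPM, and stood at 579 and 584 CPM in the other clone (difference -1.65, edgeR adjusted p = 2.47e-11). These 3 genes, like RELB, were lowest in untreated and highest in exposed Surv-GFP cells.

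Other targets rose in both clones. IL1A, a cytokine of the senescence-associated secretome, rose 26.8-fold in Surv-GFP and 5.07-fold in SurvNESmut-GFP cells, from 1.40 and 4.20 CPM. BIRC3, an inhibitor of apoptosis, rose 8.74-fold and 3.33-fold, from 1.48 and 4.72 CPM. BCL2L1, which encodes an anti-apoptotic protein, rose 1.35-fold and 1.66-fold. Its difference of 0.30 (SE 0.10, edgeR adjusted p = 0.0322) was lost on leaving out any 1 of 6 libraries.

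A few targets moved in opposite directions in the clones. TRAF1, an adaptor that is also a pathway gene, rose from 4.10 to 15.7 CPM in Surv-GFP cells and fell from 34.4 to 12.8 CPM in SurvNESmut-GFP cells (log2 fold changes 1.94 and -1.43, edgeR adjusted p = 1.17e-08 and 4.46e-08). IER3, an early response gene, rose from 116 to 213 CPM and fell from 425 to 297 CPM, and the fall was lost with a robust prior (adjusted p = 0.106). TNFAIP2 fell by 0.43 in Surv-GFP cells, a call lost without untreated library b (adjusted p = 0.0673) or TMZ library a (0.0863), and was 0.38 higher with TMZ in SurvNESmut-GFP cells (edgeR adjusted p = 0.00152).

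Of the targets that fell in Surv-GFP cells, CSF1, the macrophage growth factor, fell by 0.82 on the log2 scale, and by 0.52 in SurvNESmut-GFP cells. CD83, a surface protein of activated immune cells, fell by 0.73 in Surv-GFP cells and differed between the responses by 0.57 (edgeR adjusted p = 0.00957), a call lost without Surv-GFP untreated a (adjusted p = 0.0676). IFNGR2, a chain of the interferon-gamma receptor, fell by 0.34. STAT5A, a signal transducer, stood at 7.13 and 3.30 CPM in Surv-GFP cells and at 8.21 and 7.99 CPM in SurvNESmut-GFP cells (difference 1.07, edgeR adjusted p = 0.0016).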

How the data were processed

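RNA-seq libraries of 2 LN229 clones, untreated or with TMZ, were analysed from the table of read counts per gene that the authors deposited, which held raw counts per gene with no normalization. The submitters' processing notes name STAR 2.5.0b, Cufflinks 2.2.1 and edgeR without their role. The counting program, annotation, genome build and strand setting were not given in the sources used here. Further deposited tables of comparisons, which hold the authors' log2 fold changes, mean expression, F statistics and p-values, were not used.

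The 2 rows that name no gene held 11.2% to 14.3% (no feature) and 1.19% to 1.28% (ambiguous) of the reads in the table, and were left out. Genes were filtered with filterByExpr by group, scaled by TMM, and fitted with 4 group means over the 8 libraries. Contrasts were tested with the quasi-likelihood F test of edgeR 4.0.16 (limma 3.58.1, R 4.3.3) and adjusted by Benjamini-Hochberg over 14201 genes at 0.05. CPM use TMM-scaled library sizes, ± is the SD of 2 libraries, and the SE of a log2 fold change is its size over the square root of F. The scripts were tested on simulated counts. DESeq2 1.42.0, other scalings and filters, a replicate block and leaving out each library were tried as alternatives.

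All 10 members were named in each comparison. Of both lists, up to 3 genes a direction with the smallest p were named in each response to TMZ and in their difference, if past the threshold and, in the responses, not overlapping. Members and lists were chosen with earlier results of these data known. The study describes independent biological replicates run in technical duplicate, and the labels do not say which of these the letters are, so p-values measure the spread between libraries, which may be technical. With 15826923 to 18861603 counts per library, the common biological coefficient of variation was 4.09%.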

Additional observations from a re-analysis of the deposited data

Results flagged for a closer look

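The response to TMZ differed between SurvNESmut-GFP and Surv-GFP cells, by edgeR's test of the interaction, for 8 members and for 19 of the other genes named above. On the log2 scale, with a value below 0 for a lower response in SurvNESmut-GFP cells, the subunits differed by -1.154 (NFKB1), -0.917 (NFKB2), -0.853 (REL), -0.466 (RELA) and -1.709 (RELB). The inhibitor genes differed by -1.49 (TNFAIP3), -0.594 (NFKBIZ) and 0.399 (BCL3).

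Of the other pathway genes, the response was lower for TNFRSF12A (-2.314), BIRC2 (-0.873), TRAF1 (-3.372) and NFKBIB (-1.176), and higher for PARP1 (0.793), IL1R1 (1.096), ERC1 (0.227) and TNFRSF11A (1.454). The target genes with a lower response were LIF (-3.612), CXCL8 (-4.084), SQSTM1 (-1.654), IL1A (-2.404), BIRC3 (-1.395) and IER3 (-1.391). Those with a higher response were IFNGR2 (0.204), CD83 (0.568), BCL2L1 (0.298), TNFAIP2 (0.813) and STAT5A (1.073). The call was lost on leaving out any 1 of 4 libraries for NFKBIZ, of 5 for ERC1 and of 6 for IFNGR2 and BCL2L1, and without Surv-GFP untreated a for CD83. With DESeq2 it was lost for NFKBIZ (adjusted p = 0.204) and IFNGR2 (0.0742), and with a robust prior for NFKBIZ (0.155). For every gene the untreated level of Surv-GFP cells enters the value, and 1 clone stands for each Survivin form.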

How the results depend on the processing

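Of 840 values of the members under the alternatives, 798 kept their direction and side of the threshold, 20 lost the call, 14 gained it and 8 turned direction. These, and the values of other named genes that turned, were called neither as reported nor after turning. Without single libraries, for TMZ in Surv-GFP cells, NFKBIZ ranged from -0.03 to 0.482. For TMZ in SurvNESmut-GFP cells the ranges were -0.016 to 0.088 (RELA), -0.008 to 0.1 (TNFAIP3), -0.024 to 0.046 (SQSTM1), -0.014 to 0.097 (NFKBIB) and -0.175 to 0.101 (STAT5A), and for the difference of the responses -0.071 to 0.071 (PIDD1). Between the untreated clones they were -0.129 to 0.143 (NFKBIE), -0.462 to 0.05 (NFKBIZ), -0.06 to 0.006 (PARP1), -0.06 to 0.005 (IFNGR2) and -0.043 to 0.229 (CD83), and between the exposed clones -0.103 to 0.012 (NFKB2) and -0.152 to 0.048 (RBCK1). With library size alone, PARP1 was at 0.003 for TMZ in SurvNESmut-GFP cells. NFKB1, NFKB2, REL, RELB and TNFAIP3 stayed on their side of the threshold in all 5 comparisons under every alternative run. For TMZ in SurvNESmut-GFP cells the number of members lower was 2 with no filter and with only the 4 libraries compared, and 1 to 2 without single libraries. The number of pathway genes lower there was 3 with library size alone and 2 with DESeq2 (2 to 5 without single libraries). The number of target genes lower there was 3 with DESeq2 and 4 with a robust prior (3 to 9 without single libraries). For the difference of the responses, 2 to 7 target genes were higher without single libraries, the lowest without Surv-GFP untreated a. Between the untreated clones, 2 members were lower with no filter and with only the 4 libraries compared, and 0 to 2 without single libraries. Between the exposed clones, 1 member was higher with DESeq2, and 1 to 2 without single libraries. The cause of these shifts was not tested. No pairing of the libraries by letter was seen (correlations of the deviations of same-lettered libraries -0.067 to 0.083), which does not show that there was none. With the letter as a replicate block, 8 members rose and 1 fell with TMZ in Surv-GFP cells, and no call of a member changed. Not divided by length, RELB made up 3.91% of the subunit sum in untreated Surv-GFP cells and 9.13% with TMZ, an alternative chosen after seeing the data. Calls of RELA, NFKBIA, NFKBIE, NFKBIZ and BCL3 depended on single libraries in at least 1 comparison each.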

Other observations

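The target genes were compared between the clones as well. Untreated SurvNESmut-GFP cells had a higher level of 33 and a lower level of 4 of the 44 target genes that passed the filter, with a median log2 difference of 1.13 (0.03 over all genes), where 34.7% of all tested genes were higher and 29.4% lower. With TMZ in both clones, 24 were higher and 13 lower, with a median of 0.27, where 34.5% of all tested genes were higher and 34.7% lower. The targets listed as secreted, the receptor gene BDKRB1 among them, were higher for 14 and lower for 1 of 18 genes untreated, and higher for 10 and lower for 7 with TMZ. Of the 62 pathway genes, 26 were higher and 14 lower untreated, and 27 were higher and 19 lower with TMZ, to be read against the same shares of all genes.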
